A study of Homo sapiens with 21 samples.

Results

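Glycolysis and the response to low oxygen were followed through 36 genes among the 58870 in each deposited table. The genes were taken as a named list of 4 carriers of glucose and lactate, 17 glycolytic enzymes, 3 regulators of glycolytic flux, 8 targets of the hypoxia-inducible factors (HIF) outside glycolysis, and 4 genes for HIF alpha subunits and oxygen sensors. All 36 had a value of at least 10 in all 21 libraries, so no member was lost to the filter on low values.

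The libraries came from A375, a human melanoma line with mutant BRAF, and from 4 lines derived from it, with 3 libraries in each of 7 groups. gSOX10 #2 and gSOX10 #4 were knockouts of SOX10, which encodes a transcription factor of melanocytes, made with CRISPR/Cas9 and puromycin selection, each from its own guide and each a single clone. The titles of the gSOX10 #4 samples bear a name by which the study calls a clone of MeWo, a second melanoma line, so their group was taken from the guide and cell line given in their other labels. CRT34 and CRT35 came from A375 tumors that grew in mice under inhibitors of both kinases and were then put in culture in medium with PLX4720 against BRAF (1 µM) and PD0325901 against MEK (35 nM). CRT34 Combo and CRT35 Combo carried both inhibitors, CRT34 DMSO and CRT35 DMSO had the solvent in their place, and parental A375 had no treatment. For how long the CRT cells were with or without inhibitors is not given in the sources used here. The parental line was not sequenced with inhibitors or with solvent, and no clone made with a control guide was used here, so cloning and passage through a mouse cannot be told apart from the loss of SOX10. The study calls the libraries of each clone independent replicates, and from which cultures the other groups' libraries came is not given in the sources used here, so p-values measure the spread between libraries of 1 clone or line and may be technical in the other groups. No sample was labelled as grown in low oxygen.

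Glycolysis turns glucose into pyruvate, and cells that make lactate from it have to export that lactate through monocarboxylate transporters. When oxygen is plentiful, prolyl hydroxylases of the EGLN family mark the HIF alpha subunits for degradation. When it is scarce, the subunits persist, pair with ARNT and bind DNA at hypoxia response elements, which raises glucose uptake, glycolytic enzymes, lactate export and pH control. In melanoma cells with active BRAF, MAPK signaling is also known to favor glycolysis and to raise HIF1A.

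Values are the authors' read counts per gene divided by a size factor for each library, with no correction for gene length. SOX10 stood at 392, 504 and 460 in gSOX10 #2, at 456, 488 and 517 in gSOX10 #4, at 0 to 6.32 in the 12 CRT libraries, and at 10348, 11877 and 12822 in parental A375. The 7 melanoma and melanocyte markers summed to 2610.0 to 3228 in gSOX10 #2, 1348 to 2657 in gSOX10 #4, 3835 to 10309 in CRT34 Combo, 2981 to 4183 in CRT35 Combo, 1851 to 2800.5 in CRT34 DMSO and 1548 to 1616 in CRT35 DMSO, against 12266 to 14694 in parental A375, with no derived library reaching the parental range. SOX10 is among the 7 and made up most of each parental sum, so the lower sums do not show a fall of the others. CRT34 Combo reached 10309 with SOX10 at 0, and MITF, also among the 7, ran from 862 to 10247 over the 21 libraries. Of the 7, 4 were at 10 or above in every library of gSOX10 #2, 3 in gSOX10 #4, 2 in each CRT group and 4 in parental A375, and MLANA and TYR were at or near 0 throughout (MLANA at 0 in all 21, TYR at most 0.957). Summed values of 4 fibroblast markers, each at 10 or above in every library, were 1818 to 2351 in gSOX10 #2, 1121 to 1378 in gSOX10 #4, 20642 to 40928 in CRT34 Combo, 70910.4 to 178567 in CRT35 Combo, 40704 to 76971 in CRT34 DMSO, 62768 to 97409.5 in CRT35 DMSO and 466 to 593 in parental A375. The part of such cells or states in the results below was not tested. In bulk RNA, fewer cells of a type and less RNA per cell cannot be told apart. The depth estimated from the steps between low values was 27.4 M to 76.0 M, and CRT35 DMSO replicate 1 had the fewest. CRT34 Combo replicate 3 stood closer to CRT34 DMSO replicates 2 and 3 than to its own group. Across genes, which are not independent replicates, it correlated with them at r = 0.972 and 0.972. Its r was 0.963 with CRT34 DMSO replicate 1, and 0.959 and 0.969 with CRT34 Combo replicates 1 and 2.

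Against parental A375, the lactate exporter SLC16A3, the HIF targets CA9 and STC2 and the HIF subunit EPAS1 rose in all 6 derived groups, by log2 changes between 1.12 and 6.34. HK2, which starts glycolysis, fell in 5 of the 6. Of the 17 glycolytic enzymes 14, and of the 36 members 19, were called in no comparison, and these 19 had log2 changes from -0.89 to 0.73 between each derived group and parental A375. A gene was called where limma on log2(value + 1), run across 19290 genes, gave a Benjamini-Hochberg adjusted p within 0.05 and the change was 2-fold or more. The 6 comparisons share the same 3 parental libraries and are given side by side. How many of all tested genes were called in no comparison, or higher in all 6, was not counted. The counts of such members are therefore a description.

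In gSOX10 #2, 7 of 36 members (19.4%) were called higher and 1 lower, where 15.9% and 7.78% of all tested genes were. In gSOX10 #4 the counts were 8 (22.2%) and 2, against 11.8% and 8.91% of all genes. CRT34 Combo had 8 (22.2%) higher and 2 lower, with 19.1% and 8.09% over all genes. CRT35 Combo had 9 (25.0%) and 2, with 20.1% and 10.2%. Without inhibitors, CRT34 DMSO had 6 (16.7%) and 0 (limma, 8 lower at an unadjusted p under 0.05) beside 15.7% and 7.35%, and CRT35 DMSO had 8 (22.2%) and 3 beside 15.7% and 7.98%. With 36 members 1 gene is 2.78%, so these shares are a few genes from those of all genes. The members' median log2 change lay between -0.16 (CRT34 Combo) and 0.15 (gSOX10 #2), where the median of all genes lay between 0.00 and 0.05.

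**Figure D1:**
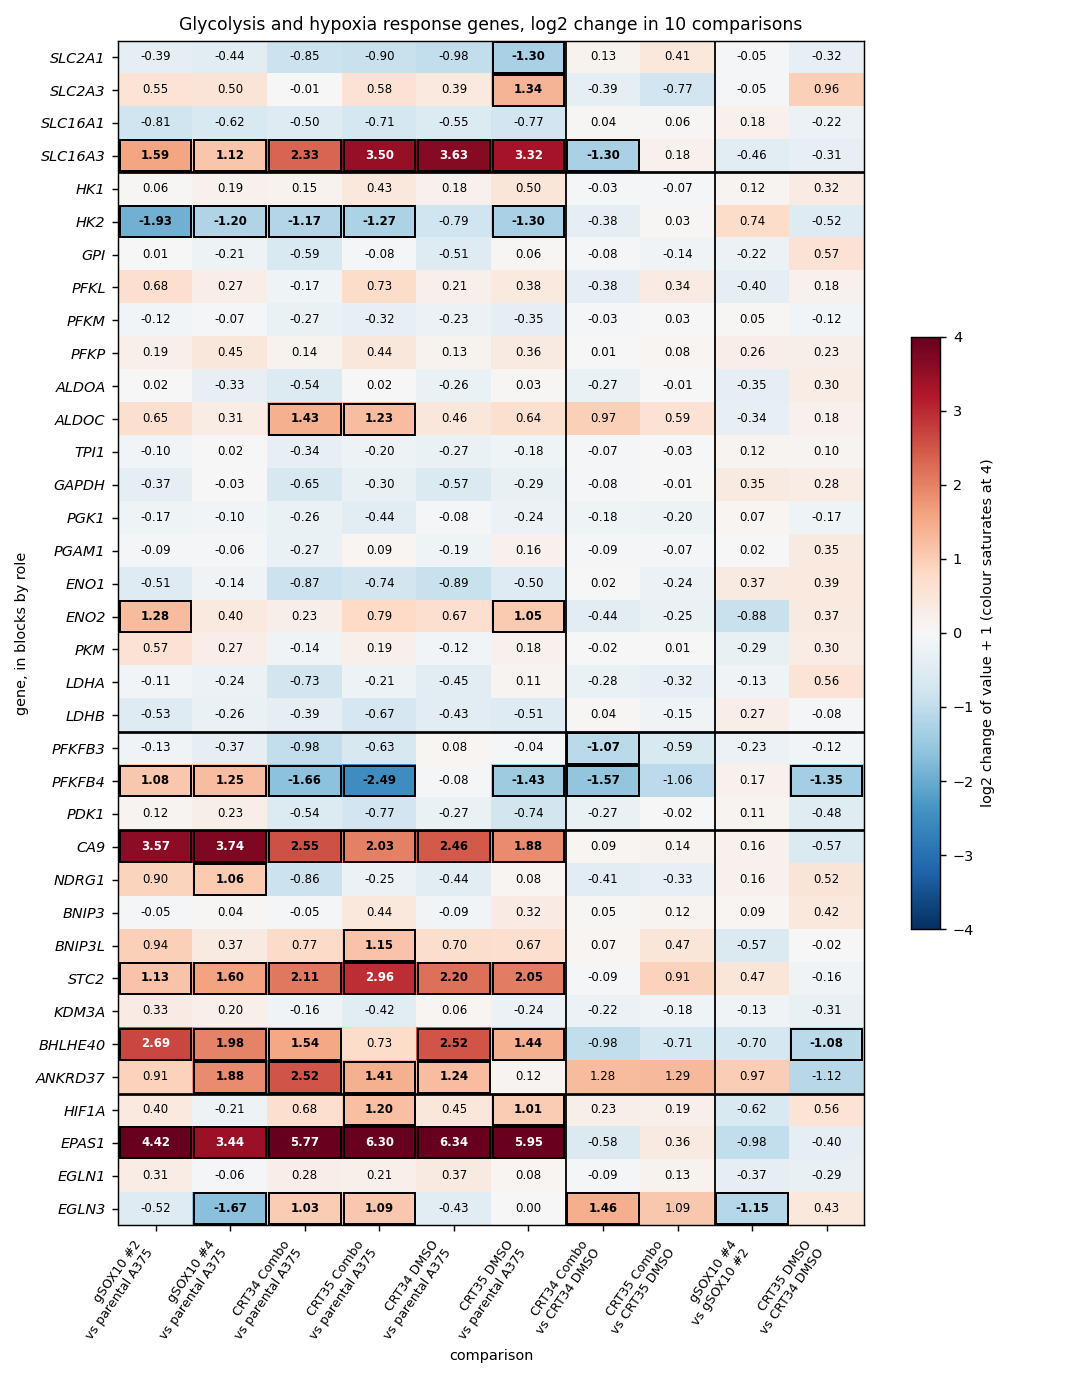
Log2 change of each of the 36 genes (rows, in blocks by role) in 10 comparisons (columns), from limma on log2(value + 1). Boxed bold values are called, and the color saturates at a size of 4; SLC16A3, CA9, STC2 and EPAS1 are boxed in all 6 comparisons with parental A375, while most rows of glycolytic enzymes have no box.

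The 250 bases before the annotated start of transcription were read for the 4 members that rose in every derived group and for PFKFB4, which went both ways, because HIF acts through short DNA elements near such starts. They are RefSeq sequences on build GRCh38.p14, given 5′ to 3′ on the strand of the gene. Capitals mark the core of the hypoxia response element, searched as ACGTG or GCGTG on either strand (read from the other strand it appears as CACGT or CACGC). SLC16A3 lies on the plus strand at chr17:82228792-82229041 and is shown at the canonical start, the one of its 5 annotated windows that was printed. CA9 is on the plus strand at chr9:35673678-35673927, EPAS1 on the plus strand at chr2:46297157-46297406, STC2 on the minus strand at chr5:173328415-173328664 and PFKFB4 on the minus strand at chr3:48556804-48557053.
SLC16A3: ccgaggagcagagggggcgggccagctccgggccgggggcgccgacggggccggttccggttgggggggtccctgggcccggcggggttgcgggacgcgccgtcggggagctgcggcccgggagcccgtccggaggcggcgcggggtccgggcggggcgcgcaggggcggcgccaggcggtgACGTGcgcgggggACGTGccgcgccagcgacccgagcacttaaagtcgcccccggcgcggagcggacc
CA9: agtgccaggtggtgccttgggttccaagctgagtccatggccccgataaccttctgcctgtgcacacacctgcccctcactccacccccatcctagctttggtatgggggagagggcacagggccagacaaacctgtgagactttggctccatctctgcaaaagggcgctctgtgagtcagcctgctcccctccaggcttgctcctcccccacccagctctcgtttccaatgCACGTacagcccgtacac
STC2: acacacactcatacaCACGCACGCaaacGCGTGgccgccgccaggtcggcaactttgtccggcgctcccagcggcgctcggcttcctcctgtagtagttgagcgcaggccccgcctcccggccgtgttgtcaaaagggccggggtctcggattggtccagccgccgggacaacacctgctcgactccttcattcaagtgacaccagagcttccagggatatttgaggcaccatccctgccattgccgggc
EPAS1: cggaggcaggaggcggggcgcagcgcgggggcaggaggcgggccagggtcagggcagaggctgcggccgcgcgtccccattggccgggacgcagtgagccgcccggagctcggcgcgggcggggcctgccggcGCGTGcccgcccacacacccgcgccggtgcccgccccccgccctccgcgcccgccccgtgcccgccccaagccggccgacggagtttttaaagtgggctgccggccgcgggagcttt
PFKFB4: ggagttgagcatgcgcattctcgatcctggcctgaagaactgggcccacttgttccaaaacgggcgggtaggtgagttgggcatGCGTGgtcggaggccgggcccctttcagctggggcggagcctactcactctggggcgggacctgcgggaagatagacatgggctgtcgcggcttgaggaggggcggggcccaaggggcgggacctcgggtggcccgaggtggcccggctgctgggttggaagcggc
SLC16A3 held 2 cores, STC2 held 3, of which 2 share a base, and the remaining 3 genes held 1 each, which begins 18 bases before the start in CA9, 117 in EPAS1 and 166 in PFKFB4. Over the 60 windows of the 32 members that matched the RefSeq table, 36 held the core (60.0%), against 43.2% of all 35116 windows of the same length. The E-box CACGTG, which contains the core, was in 9 of the 60 (15.0%, against 6.34%), an AP-1 site (TGACTCA or TGAGTCA) was in 5 (8.33%, against 4.2%), and a SOX core (ACAAAG or ACAATG) was in 8 (13.3%, against 21.2%). BNIP3L, SLC2A3, SLC16A1 and NDRG1 were not in the table. These shares count windows rather than genes, and neither base composition nor the choice of the members was allowed for. A match is a description of these letters, not a site of binding.

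SLC16A3 encodes MCT4, the carrier that exports lactate from glycolytic cells. It stood at 1072, 904 and 934 in gSOX10 #2 and 767, 609 and 736 in gSOX10 #4. In the CRT lines it was 1641, 1716 and 1515 in CRT34 Combo, 2952, 4571 and 4743 in CRT34 DMSO, 4245, 3523 and 3249 in CRT35 Combo and 3831, 3136 and 2774 in CRT35 DMSO. Parental A375 had 276, 321 and 376. Every derived library lay above every parental library, the CRT libraries lay above both clones, and within CRT34 the Combo libraries lay below the DMSO libraries without overlap. The log2 changes were 1.59 and 1.12 in gSOX10 #2 and #4 and 2.33, 3.50, 3.63 and 3.32 in CRT34 Combo, CRT35 Combo, CRT34 DMSO and CRT35 DMSO (SE 0.18), with adjusted p of 8.9e-05 or lower. With quantile normalization the change in gSOX10 #4 was 0.93, under the fold threshold. SLC16A3 shares 482 exon bases with CSNK1D on the opposite strand, and since the sources name a stranded and an unstranded library kit, reads of such partners may not have been told apart.

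SLC16A1 encodes MCT1, which moves lactate either way, and it ran lower in every derived group without passing the fold threshold. Its mean was 10319.9 ± 890.1 in gSOX10 #2, 11781 ± 1712 in gSOX10 #4, 12719 ± 1153 in CRT34 Combo, 11044 ± 1036 in CRT35 Combo, 12600.2 ± 3368 in CRT34 DMSO and 10572 ± 580.4 in CRT35 DMSO, against 17998 ± 689 in parental A375 (SD, n = 3 each). All 18 derived libraries lay below the 3 parental ones, with log2 changes from -0.81 to -0.50 and adjusted p of 0.0096 or lower.

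The glucose carriers moved apart from each other in CRT35 DMSO. SLC2A1, the widespread carrier GLUT1, fell there to 4549 ± 164, against 11288 ± 1611 in parental A375, a log2 change of -1.30 ± 0.13 (SE, adjusted p = 2.7e-07). SLC2A3, the high-affinity carrier GLUT3, rose there to 6982 ± 469, against 2746 ± 126, a change of 1.34 ± 0.24 (adjusted p = 0.00014). In the other 5 derived groups SLC2A1 had log2 changes from -0.98 (CRT34 DMSO) to -0.39 (gSOX10 #2) and SLC2A3 from -0.01 (CRT34 Combo) to 0.58 (CRT35 Combo), none of them called. Without parental A375 replicate 3, SLC2A1 was also called lower in CRT35 Combo and in CRT34 DMSO (-1.09 in the second of these).

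Of the 17 glycolytic enzymes, HK2 fell, ALDOC and ENO2 rose in some groups, and the other 14 were called nowhere. HK2 encodes hexokinase II, which traps glucose in the cell and is often abundant in tumors. It stood at 2219, 2139.7 and 1666 in gSOX10 #2 and 2662, 4255 and 3253 in gSOX10 #4. The CRT libraries gave 3101, 3838 and 3248 in CRT34 Combo, 6029, 4201 and 3397 in CRT34 DMSO, 2933, 3270.0 and 3292 in CRT35 Combo and 3500.2, 2858 and 2945 in CRT35 DMSO. In parental A375 it was 7983, 7320.3 and 7573. No derived library reached the lowest parental one, and the nearest was CRT34 DMSO replicate 1. HK2 fell by 1.93 on the log2 scale in gSOX10 #2, by 1.20 in gSOX10 #4, by 1.17 in CRT34 Combo, by 1.27 in CRT35 Combo and by 1.30 in CRT35 DMSO (SE 0.19, adjusted p of 6.6e-05 or lower). In CRT34 DMSO the value was -0.79 (adjusted p = 0.0024), under the fold threshold, and without CRT34 DMSO replicate 1 it was -1.01 and was called. HK1, the hexokinase of most tissues, had changes from 0.06 to 0.50, none called.

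ALDOC is the aldolase known from brain, and it was called higher than in parental A375 only in CRT34 Combo and CRT35 Combo. In the main fit it was not called between Combo and DMSO in either line. CRT34 Combo averaged 3885 ± 316 and CRT35 Combo 3419 ± 499.5, against 1465 ± 319.9 in parental A375, with changes of 1.43 ± 0.24 and 1.23 ± 0.24 on the log2 scale (SE, adjusted p = 9.8e-05 and 0.00031). In the remaining groups it ran from 1864 (gSOX10 #4) to 2336 (gSOX10 #2) and was not called. ENO2, the enolase known from neurons, rose in gSOX10 #2 to 5417 ± 765 and in CRT35 DMSO to 4582 ± 229, against 2217 ± 69.3 in parental A375, by 1.28 ± 0.15 and 1.05 ± 0.15 (adjusted p = 2.1e-06 and 1.5e-05). In the other 4 derived groups its changes were 0.40 (gSOX10 #4), 0.23 (CRT34 Combo), 0.79 (CRT35 Combo) and 0.67 (CRT34 DMSO).

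The abundant enzymes of the pathway differed by less than 2-fold throughout. GAPDH, which oxidizes the triose phosphate, averaged 358193 ± 41281 in gSOX10 #2, 459049 ± 91749.7 in gSOX10 #4, 293928 ± 13947 in CRT34 Combo, 375840.0 ± 9394 in CRT35 Combo, 314574 ± 59134 in CRT34 DMSO and 378787 ± 37974 in CRT35 DMSO, against 462668 ± 29047 in parental A375. ENO1, the main enolase, had the widest change of those never called, -0.89 in CRT34 DMSO and -0.87 in CRT34 Combo, with means of 136482 and 137973 against 251830.0 in parental A375 (adjusted p = 0.00026 and 0.00028). LDHA, which makes lactate from pyruvate, had changes from -0.73 (CRT34 Combo) to 0.11 (CRT35 DMSO), and LDHB, the lactate dehydrogenase that favors pyruvate, from -0.67 to -0.26, below all parental libraries in every derived group. PKM, pyruvate kinase, reached 0.57 in gSOX10 #2 (adjusted p = 0.005) and lay between -0.14 and 0.27 elsewhere. PFKL, the liver form of phosphofructokinase, was at 0.68 in gSOX10 #2 and 0.73 in CRT35 Combo (adjusted p = 0.012 and 0.006), while its isozymes PFKP and PFKM lay from 0.13 to 0.45 and from -0.35 to -0.07.

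GPI, which isomerizes glucose phosphate, had changes from -0.59 to 0.06 and ALDOA, the main aldolase, from -0.54 to 0.03, both at their lowest in CRT34 Combo. On their own strand ALDOA, LDHB, EGLN1 and GPI share 1639, 997, 3004 and 542 exon bases with other protein-coding genes. Reads of such partners may not have been told apart. TPI1, PGK1 and PGAM1, which act further down the pathway, lay from -0.34 to 0.02, from -0.44 to -0.08 and from -0.27 to 0.16. Together the 17 enzymes took 2.00% to 2.31% of a library's summed value in gSOX10 #2, 2.01% to 2.69% in gSOX10 #4, 1.58% to 1.68% in CRT34 Combo, 1.89% to 2.01% in CRT35 Combo, 1.46% to 1.80% in CRT34 DMSO and 1.85% to 2.14% in CRT35 DMSO, against 2.12% to 2.20% in parental A375. All libraries of CRT34 and of CRT35 Combo lay below the parental range, and the gSOX10 #4 range enclosed it. Pseudogenes are named after 18 of the members, 65 after GAPDH, 44 after BNIP3 and 13 after PGAM1, so values of these genes may include or lack reads of near copies.

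The PFKFB enzymes make and remove the sugar phosphate that activates phosphofructokinase, and PFKFB4 was called higher in both clones and lower in 3 of the 4 CRT groups. It stood at 6064, 6931 and 7408 in gSOX10 #2 and 7157, 5813 and 10555 in gSOX10 #4. CRT34 and CRT35 cells had 559, 904 and 2066 in CRT34 Combo, 2177, 3649 and 3469.9 in CRT34 DMSO, 582, 548 and 581 in CRT35 Combo and 1668, 1015 and 989.9 in CRT35 DMSO. Parental A375 had 2644, 3230.0 and 3836. Both clones lay above the parental libraries without overlap, CRT34 Combo and both CRT35 groups lay below them without overlap, and CRT34 DMSO overlapped them. PFKFB4 rose by 1.08 and 1.25 in gSOX10 #2 and #4 (SE 0.34, adjusted p = 0.015 and 0.0076). It fell by 1.66 in CRT34 Combo, by 2.49 in CRT35 Combo and by 1.43 in CRT35 DMSO (adjusted p = 0.00066, 7.8e-06 and 0.0024), and had -0.08 in CRT34 DMSO. Without parental A375 replicate 1 the change in gSOX10 #2 was 0.95 (adjusted p = 0.0663) and was no longer called. PFKFB4 shares 298 exon bases on its own strand with UCN2.

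PFKFB3, the sister enzyme that is known as the stronger kinase of the pair, was not called against parental A375. It stood at 4657, 4394 and 4323 in gSOX10 #2 and 4016, 4064 and 3348 in gSOX10 #4. The tolerant lines gave 2497, 2422 and 2493 in CRT34 Combo, 4897, 5218 and 5425 in CRT34 DMSO, 2908, 3118 and 3448 in CRT35 Combo and 6745, 3755 and 4249 in CRT35 DMSO, and parental A375 had 4514, 4705 and 5502. Both Combo groups lay below the parental libraries and below their own DMSO libraries without overlap. The change in CRT34 Combo against parental A375 was -0.98 (adjusted p = 6.2e-05), just under 2-fold, and without parental A375 replicate 1 it was -1.04 and was called. PDK1, the kinase that closes pyruvate dehydrogenase and so diverts pyruvate from mitochondria, had log2 changes of 0.12, 0.23, -0.54, -0.77, -0.27 and -0.74 in gSOX10 #2, gSOX10 #4, CRT34 Combo, CRT35 Combo, CRT34 DMSO and CRT35 DMSO, none called.

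Among the 8 HIF targets outside glycolysis, 3 were called higher in gSOX10 #2, 5 in gSOX10 #4, 4 in CRT34 Combo, 4 in CRT35 Combo, 4 in CRT34 DMSO and 3 in CRT35 DMSO, and limma called 0 of the 8 lower in each of them. With 8 genes 1 gene is 12.5%, and over all genes 15.9%, 11.8%, 19.1%, 20.1%, 15.7% and 15.7% were called higher and 7.78%, 8.91%, 8.09%, 10.2%, 7.35% and 7.98% lower in the same order. At an unadjusted p under 0.05 the numbers lower were 0, 0, 1, 1, 0 and 0, and NDRG1 in CRT34 Combo (-0.86, adjusted p = 0.0067) and KDM3A in CRT35 Combo (-0.42, adjusted p = 0.043) passed the adjusted p without the fold. The medians of the log2 changes of the 8 were 0.92, 1.33, 1.16, 0.94, 0.97 and 0.50 in the same order, beside medians of all genes from 0.00 to 0.05.

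CA9, a carbonic anhydrase of the cell surface that is widely used as a marker of hypoxia, was low in parental A375 and higher in every derived group. It stood at 199, 632 and 217 in gSOX10 #2 and 790.1, 244 and 199 in gSOX10 #4. The CRT libraries gave 132, 139 and 173 in CRT34 Combo, 61.2, 309.7 and 138 in CRT34 DMSO, 85.2, 114 and 110.2 in CRT35 Combo and 164, 77.9 and 62.1 in CRT35 DMSO, and parental A375 gave 25.7, 13.6 and 41.0. All 18 derived libraries lay above the 3 parental ones, and 1 library in each of gSOX10 #2, gSOX10 #4, CRT34 DMSO and CRT35 DMSO was more than 2-fold above its fellows. The log2 changes were 3.57, 3.74, 2.55, 2.03, 2.46 and 1.88 in gSOX10 #2, gSOX10 #4, CRT34 Combo, CRT35 Combo, CRT34 DMSO and CRT35 DMSO (SE 0.59), with adjusted p between 7.7e-05 and 0.015. In CRT35 DMSO the call was lost without parental A375 replicate 2 or CRT35 DMSO replicate 1 (adjusted p = 0.083 and 0.0883). CA9 shares 571 exon bases with ARHGEF39 on the opposite strand.

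STC2 encodes a stanniocalcin, a secreted glycoprotein that is induced by hypoxia and by stress of the endoplasmic reticulum. It stood at 7814, 6469.6 and 3889 in gSOX10 #2 and 8712, 8795 and 6832 in gSOX10 #4. In the CRT lines it stood at 13553, 18657 and 6066 in CRT34 Combo, 20652, 7653 and 11654 in CRT34 DMSO, 19485, 23147 and 19585 in CRT35 Combo and 15392, 8822 and 9818 in CRT35 DMSO, and parental A375 had 2919.5, 2468 and 2617. All derived libraries lay above the parental ones, and the spread within a group was widest in CRT34. The log2 changes were 1.13, 1.60, 2.11, 2.96, 2.20 and 2.05 in gSOX10 #2, gSOX10 #4, CRT34 Combo, CRT35 Combo, CRT34 DMSO and CRT35 DMSO (SE 0.36), with adjusted p of 0.016 or lower. In gSOX10 #2 the call was lost without replicate 1 (0.91, adjusted p = 0.0754) or replicate 2 (adjusted p = 0.0558).

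BHLHE40, a transcriptional repressor that HIF and other signals induce, was highest in gSOX10 #2 and CRT34 DMSO. It stood at 6208, 5190.1 and 9412 in gSOX10 #2 and 3309, 3319.6 and 6409 in gSOX10 #4. The tolerant lines had 2124, 3292 and 4015 in CRT34 Combo, 4895, 6489 and 6768 in CRT34 DMSO, 1731, 2044 and 1451 in CRT35 Combo and 3879, 2431 and 2394 in CRT35 DMSO, and parental A375 had 844, 983 and 1368. No derived library overlapped the parental ones. BHLHE40 rose by 2.69, 1.98, 1.54, 2.52 and 1.44 in gSOX10 #2, gSOX10 #4, CRT34 Combo, CRT34 DMSO and CRT35 DMSO (SE 0.29, adjusted p of 0.00064 or lower), and had 0.73 in CRT35 Combo (adjusted p = 0.046), under the fold threshold.

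ANKRD37, an ankyrin repeat protein known as a direct HIF target, was highest in CRT34 Combo. It stood at 293, 253 and 341 in gSOX10 #2 and 749, 466 and 551 in gSOX10 #4. For the CRT lines the values were 1795, 939 and 430.4 in CRT34 Combo, 235, 562 and 385 in CRT34 DMSO, 550.1, 433 and 303 in CRT35 Combo and 236, 136 and 151 in CRT35 DMSO, and parental A375 had 162, 136 and 172. Only CRT35 DMSO overlapped parental A375, and CRT34 Combo replicate 3 was the lowest of its group. ANKRD37 rose by 1.88 in gSOX10 #4, 2.52 in CRT34 Combo, 1.41 in CRT35 Combo and 1.24 in CRT34 DMSO (SE 0.40, adjusted p from 5.3e-05 to 0.018), and had 0.91 in gSOX10 #2 and 0.12 in CRT35 DMSO. The call in CRT34 DMSO was lost without parental A375 replicate 2 (adjusted p = 0.0601) or CRT34 DMSO replicate 2 (adjusted p = 0.101), and narrowly without CRT34 DMSO replicate 3. ANKRD37 shares 909 exon bases with UFSP2 on the opposite strand.

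NDRG1, a cytoplasmic protein of the stress response, rose in gSOX10 #4 to 6381 ± 1375, against 3022 ± 294 in parental A375, by 1.06 ± 0.24 (SE, adjusted p = 0.0019), and the value was 0.91 without gSOX10 #4 replicate 1. BNIP3L, a receptor that sends mitochondria to autophagy, rose in CRT35 Combo to 6286 ± 506, against 2849 ± 431, by 1.15 ± 0.24 (adjusted p = 0.00064), and had changes from 0.37 to 0.94 in the other 5 derived groups. Its relative BNIP3 had changes from -0.09 to 0.44, and KDM3A, a histone demethylase, from -0.42 to 0.33, none called. Summed over the 8 HIF targets, the share of a library's value was 0.0544% to 0.0569% in gSOX10 #2, 0.0514% to 0.0548% in gSOX10 #4, 0.0426% to 0.0586% in CRT34 Combo, 0.0599% to 0.0704% in CRT35 Combo, 0.0524% to 0.0554% in CRT34 DMSO and 0.0427% to 0.0593% in CRT35 DMSO, against 0.0249% to 0.0301% in parental A375. Abundant genes weigh most in such a sum. In CRT35 Combo STC2 averaged 20739, against 2668 in parental A375, while NDRG1 (2539.5 against 3022) and KDM3A (2360 against 3164) stood lower. In that group 6 of the 8 had a log2 change above 0, so the higher shares do not show a rise of each gene.

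**Figure D2:**
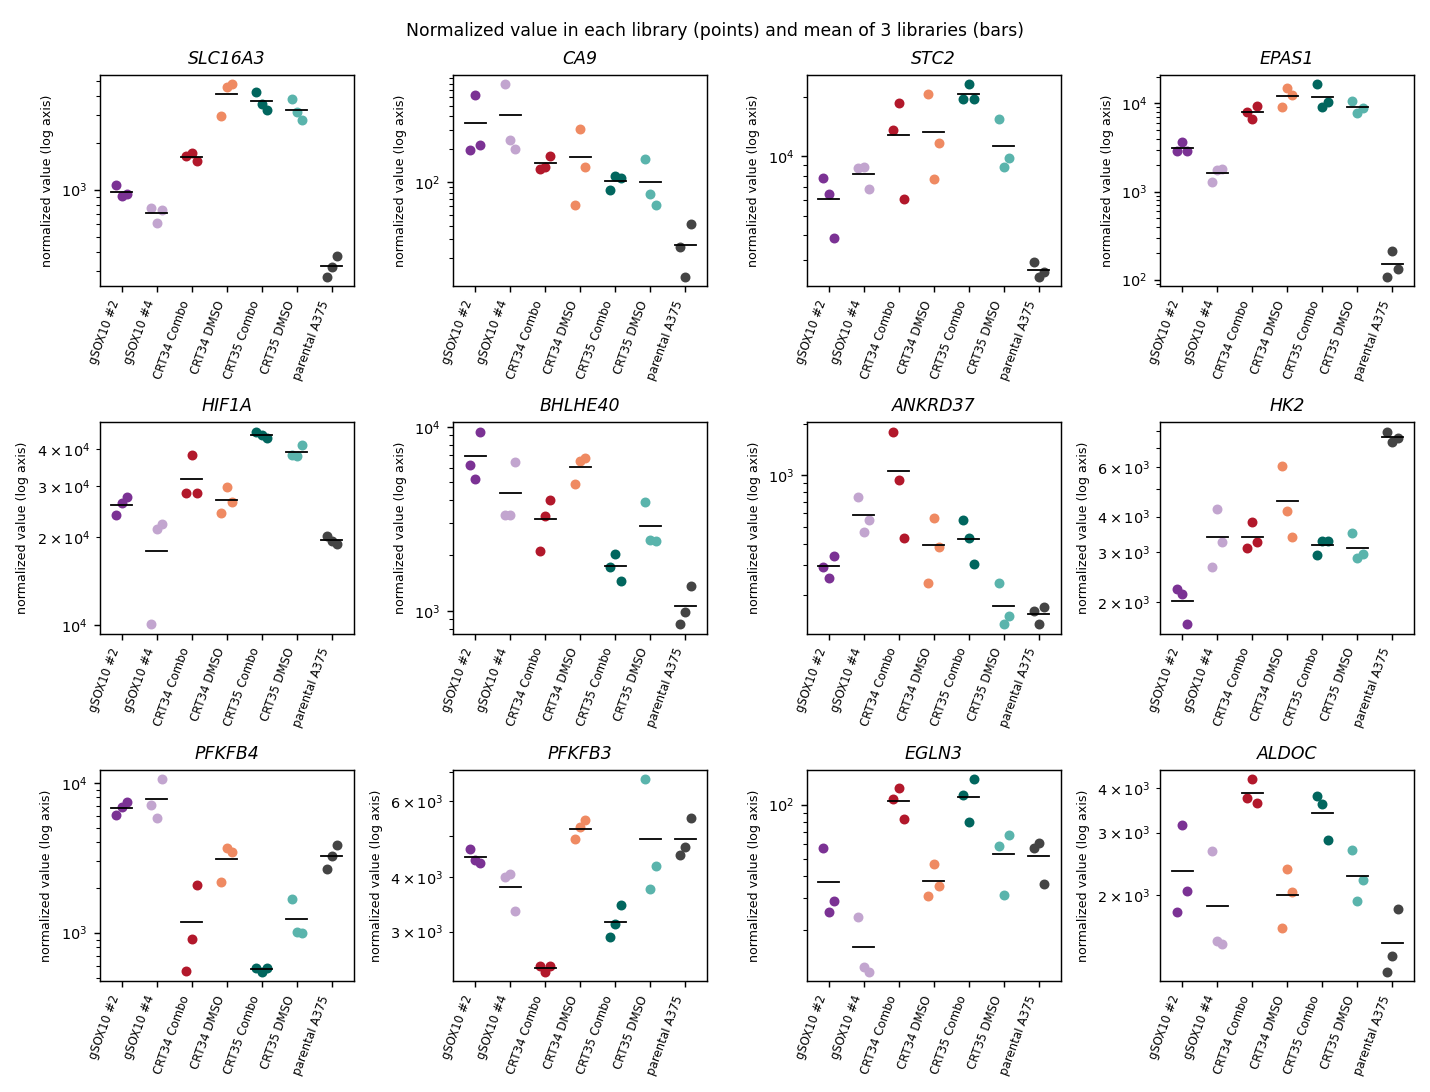
Deposited value of 12 members in each of the 21 libraries (log axis, 1 panel a gene). Points are libraries and bars are means of 3 in gSOX10 #2, gSOX10 #4, CRT34 Combo, CRT34 DMSO, CRT35 Combo, CRT35 DMSO and parental A375; every derived library of SLC16A3, CA9, STC2, BHLHE40 and EPAS1 lies above the parental ones, and PFKFB4 lies above them in the clones and below them in CRT35.

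EPAS1 had the widest changes of all members. It encodes a HIF alpha subunit that is prominent in endothelium and some tumors. It stood at 2877, 3689.9 and 2886 in gSOX10 #2 and 1271, 1741 and 1807 in gSOX10 #4. CRT34 and CRT35 had 7988, 6742 and 9366 in CRT34 Combo, 9125, 14929 and 12335 in CRT34 DMSO, 16548, 9089 and 10285 in CRT35 Combo and 10656, 7888 and 8784 in CRT35 DMSO, and parental A375 had 108, 214 and 133. The 3 sets of libraries did not overlap: all CRT values were above all clone values, and those were above all parental values. EPAS1 rose by 4.42 and 3.44 in gSOX10 #2 and #4 and by 5.77, 6.30, 6.34 and 5.95 in CRT34 Combo, CRT35 Combo, CRT34 DMSO and CRT35 DMSO (SE 0.25, adjusted p of 7.2e-09 or lower). The 3 endothelial markers summed to 137 to 197 in gSOX10 #2, 82.0 to 190.4 in gSOX10 #4, 112 to 319.7 in CRT34 Combo, 123 to 159 in CRT35 Combo, 285 to 531 in CRT34 DMSO and 229 to 579 in CRT35 DMSO, against 28.6 to 38.9 in parental A375, where none of the 3 reached 10 in all parental libraries and CDH5 was at 0 in all of gSOX10 #4, and their part in the EPAS1 result was not tested.

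HIF1A, the alpha subunit of most cells, was abundant in all groups and rose in both CRT35 groups. CRT35 Combo had 45972, 44656 and 43656 and CRT35 DMSO had 38317, 38084 and 41443, against 20226, 19401 and 18910.3 in parental A375. Neither CRT35 group overlapped the parental libraries. The log2 changes were 1.20 ± 0.21 and 1.01 ± 0.21 (SE, adjusted p = 8.5e-05 and 0.0006), and in CRT35 DMSO the value was 0.99 without parental A375 replicate 3 and 0.97 without CRT35 DMSO replicate 3, under the fold threshold. In gSOX10 #2, gSOX10 #4, CRT34 Combo and CRT34 DMSO the changes were 0.40, -0.21, 0.68 and 0.45, and the libraries of gSOX10 #4 stood at 10038, 21352 and 22206. CRT35 DMSO lay 0.56 above CRT34 DMSO (adjusted p = 0.077), which did not pass the test.

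Of the oxygen sensors, EGLN1, the main prolyl hydroxylase of HIF, had changes from -0.06 to 0.37 and was not called. EGLN3, a hydroxylase that is itself a HIF target, had the lowest values of this role. It stood at 57.0, 25.2 and 28.9 in gSOX10 #2 and 23.7, 12.5 and 11.6 in gSOX10 #4. The CRT lines had 108, 124 and 82.7 in CRT34 Combo, 31.0, 46.6 and 35.1 in CRT34 DMSO, 113, 79.9 and 139 in CRT35 Combo and 58.9, 31.4 and 67.9 in CRT35 DMSO, and parental A375 had 57.4, 61.0 and 36.1. Both Combo groups lay above parental A375 and gSOX10 #4 lay below it, without overlap, and the other groups overlapped it. EGLN3 rose by 1.03 in CRT34 Combo and 1.09 in CRT35 Combo (SE 0.39, adjusted p = 0.036 and 0.026) and fell by 1.67 in gSOX10 #4 (adjusted p = 0.0024). The rise lost its call under 7 of 13 alternatives in CRT34 Combo and under 7 of 12 in CRT35 Combo, in both with a pseudocount of 10 or with no filter. Both also lost it without parental A375 replicate 3 (0.80 and 0.85, adjusted p = 0.148 and 0.114) and under quantile normalization (0.44 and 0.56).

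Levels of isozymes can be set against each other only per length, since the deposited values are not corrected for it. Each value was divided by the length of the gene's canonical transcript in kb, and the share of the pair is given as the range over 3 libraries, as a description. SLC16A3 made up 11.6% to 12.2% of its sum with SLC16A1 in gSOX10 #2, 6.51% to 10.1% in gSOX10 #4, 15.0% to 16.6% in CRT34 Combo, 29.1% to 38.3% in CRT35 Combo, 20.5% to 39.0% in CRT34 DMSO and 26.3% to 34.6% in CRT35 DMSO, against 2.08% to 2.98% in parental A375. In every group MCT1 transcripts remained the larger part. HK2 took 7.84% to 10.1%, 9.09% to 16.8%, 12.6% to 15.1%, 10.8% to 11.1%, 12.8% to 23.5% and 9.49% to 11.6% of its sum with HK1 in the same order of groups, against 27.0% to 30.4% in parental A375, with no overlap. SLC2A3 outweighed SLC2A1 only in CRT35 DMSO, at 55.4% to 60.1% of their sum, against 16.5% to 19.8% in parental A375.

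PFKFB4 was 62.5% to 68.7% of its sum with PFKFB3 in gSOX10 #2 and 64.7% to 80.2% in gSOX10 #4, 22.3% to 51.5% in CRT34 Combo, 17.8% to 20.4% in CRT35 Combo, 36.3% to 47.3% in CRT34 DMSO and 23.0% to 25.7% in CRT35 DMSO, against 42.9% to 47.2% in parental A375. The larger of the pair was PFKFB4 in every library of the clones. It was PFKFB3 in every library of parental A375, CRT34 DMSO and CRT35, and CRT34 Combo had libraries of both kinds. EPAS1 was 7.46% to 9.71% of its sum with HIF1A in gSOX10 #2, 5.86% to 8.83% in gSOX10 #4, 11.9% to 20.2% in CRT34 Combo, 13.5% to 21.6% in CRT35 Combo, 22.3% to 27.7% in CRT34 DMSO and 13.7% to 17.6% in CRT35 DMSO, against 0.407% to 0.837% in parental A375, and HIF1A stayed the larger part in every library. ALDOC and ENO2 remained under 10% of their sums with ALDOA and ENO1 in every group, at most in CRT34 Combo for ALDOC (6.07% to 8.23%, against 1.57% to 2.51% in parental A375) and in gSOX10 #2 for ENO2 (2.00% to 2.58%, against 0.647% to 0.721%). In parental A375 the highest member per kb was GAPDH, at 335349 to 379702, and the lowest on average was CA9, at 8.80 to 26.5, a range that overlaps that of EGLN3 (13.3 to 22.5).

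**Figure D3:**
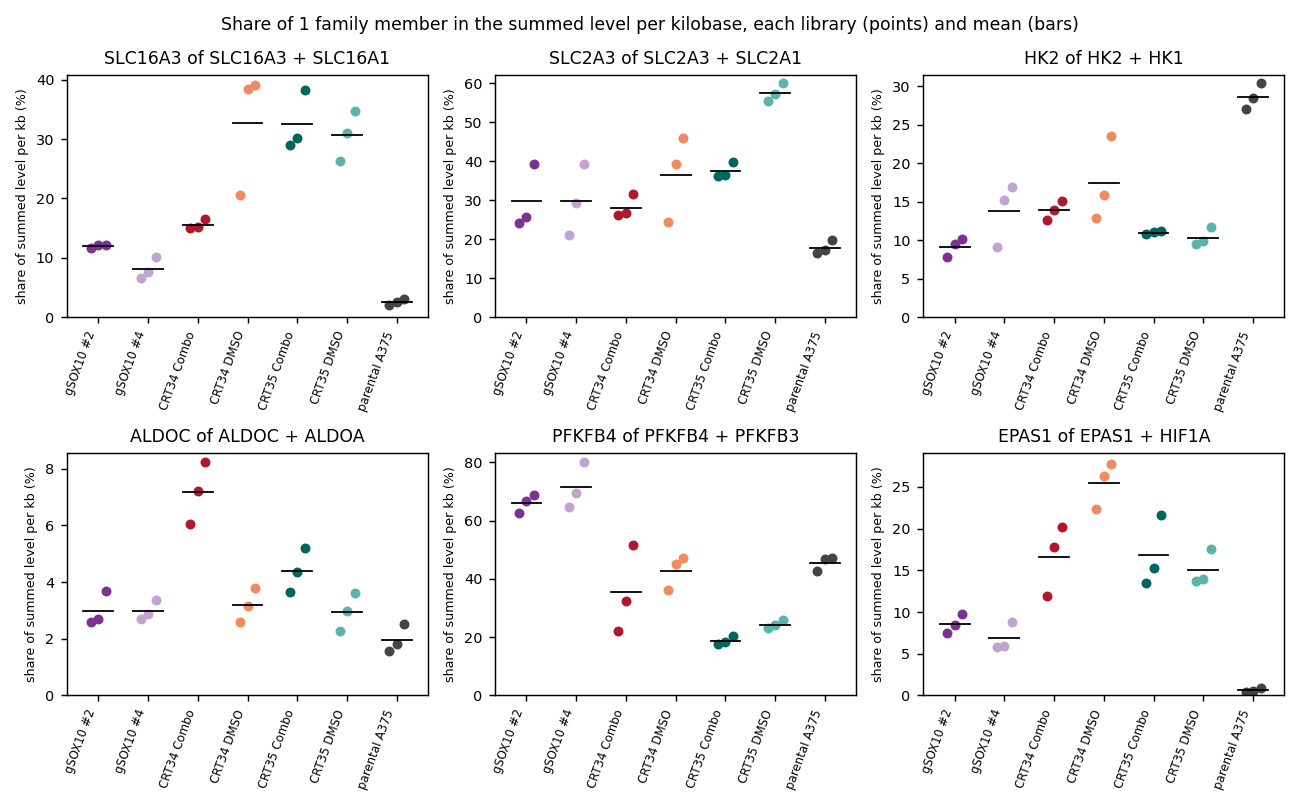
Share (%) of the summed level per kb that belongs to the first gene of 6 pairs (SLC16A3, SLC2A3, HK2, ALDOC, PFKFB4 and EPAS1), 1 point a library, ordered from low to high within each of the 7 groups, with bars at the means. HK2 is lower and SLC16A3 and EPAS1 are higher in every derived library than in the parental ones.

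The effect of the inhibitors within the tolerant lines was read from Combo against DMSO, and in CRT34 the lactate exporter and both PFKFB genes were lower with them. In CRT34, 1 of 36 members was called higher (EGLN3) and 3 were called lower (SLC16A3, PFKFB3 and PFKFB4), where 2.84% and 2.26% of all genes were. SLC16A3 fell by 1.30 (adjusted p = 0.00026), PFKFB3 by 1.07 (adjusted p = 0.00047) and PFKFB4 by 1.57 (adjusted p = 0.0081), with no overlap between Combo and DMSO libraries. EGLN3 rose by 1.46 (adjusted p = 0.026), also without overlap, and lost its call without CRT34 Combo replicate 1 or 2 or CRT34 DMSO replicate 1 or 3 (adjusted p from 0.076 to 0.111). In CRT35, limma called 0 of 36 in either direction, where 0.487% and 0.648% of all genes were called higher and lower, and 10 members had an unadjusted p under 0.05. The CRT35 changes of the 4 genes were 0.18 for SLC16A3 (95% interval -0.20 to 0.56), -0.59 for PFKFB3 (-0.93 to -0.26), -1.06 for PFKFB4 (-1.77 to -0.34) and 1.09 for EGLN3 (0.27 to 1.90).

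A test of the difference between the 2 drug effects called none of the 36 members with limma (0% and 0.0104% of all genes called higher and lower), and 4 had an unadjusted p under 0.05. SLC16A3 came nearest, with a difference of 1.48 ± 0.26 (SE, CRT35 minus CRT34, adjusted p = 0.056), and it was called without CRT34 DMSO replicate 1 (1.70, adjusted p = 0.0063), without CRT34 Combo replicate 3 (1.43, adjusted p = 0.0133) and without CRT35 DMSO replicate 1 (1.61, adjusted p = 0.0414). Without CRT34 Combo replicate 3, the library that lay close to CRT34 DMSO, 7 members were called in CRT34 in place of 4, among them ALDOC (1.01), ANKRD37 (1.81) and BHLHE40 (-1.18). With it, these had 0.97, 1.28 and -0.98. When only the 6 CRT34 libraries were fitted in place of all 21, PFKFB3 alone was called.

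**Figure D4:**
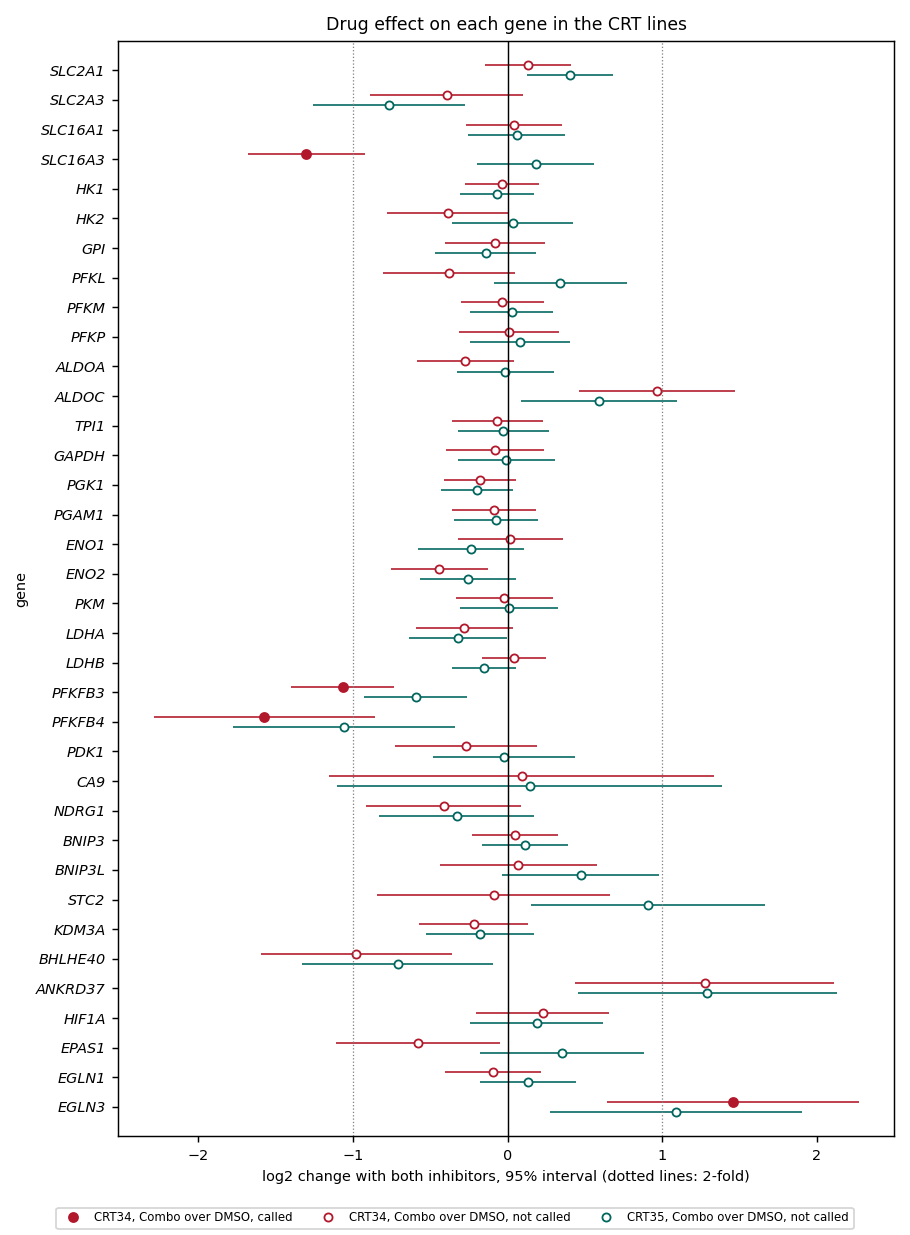
Log2 change of each member between Combo and DMSO with its 95% interval, CRT34 in red and CRT35 in green, where filled points are called and dotted lines mark 2-fold. SLC16A3, PFKFB3, PFKFB4 and EGLN3 are filled in CRT34 and no gene is filled in CRT35; the intervals of the CRT34 and CRT35 changes overlap for every gene but SLC16A3.

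Between the clones, gSOX10 #4 against gSOX10 #2, 1 of 36 members was called lower and limma called 0 higher, where 7.06% of all genes were called lower and 2.64% higher, and 5 members were higher at an unadjusted p under 0.05. EGLN3 fell by 1.15 ± 0.39 (SE, adjusted p = 0.042), a call lost without gSOX10 #2 replicate 1 (-0.80, adjusted p = 0.196), gSOX10 #2 replicate 3 (adjusted p = 0.0601), gSOX10 #4 replicate 2 (adjusted p = 0.12) or gSOX10 #4 replicate 3 (adjusted p = 0.125). EPAS1 stood just under 2-fold lower in gSOX10 #4, at -0.98 (adjusted p = 0.0093), and was called without any 1 of those 4 libraries (-1.04 to -1.07). ENO2 stood at -0.88 (adjusted p = 0.00035), and HK2 at 0.74 (adjusted p = 0.0081).

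Off drug, CRT35 DMSO against CRT34 DMSO, 2 members were called lower and limma called 0 higher, where 4.42% and 3.69% of all genes were, and 10 were higher at an unadjusted p under 0.05. PFKFB4 fell by 1.35 ± 0.34 (SE, adjusted p = 0.011) and BHLHE40 by 1.08 ± 0.29 (adjusted p = 0.017), both without overlap of libraries. The call of PFKFB4 was lost without CRT34 DMSO replicate 2 or CRT35 DMSO replicates 2 or 3 (adjusted p = 0.0508, 0.0536 and 0.0555), and that of BHLHE40 without the same libraries or CRT34 DMSO replicate 3 (adjusted p from 0.0574 to 0.0774). SLC2A3 stood 0.96 higher in CRT35 DMSO (adjusted p = 0.0092), just under 2-fold, and without CRT35 DMSO replicate 1, the shallowest library, it was 1.01 and was called.

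The members did not vary evenly within groups. Over the 36, the median coefficient of variation was 10.4% in gSOX10 #2, 21.8% in gSOX10 #4, 10.3% in CRT34 Combo, 9.55% in CRT35 Combo, 17.7% in CRT34 DMSO and 9.41% in CRT35 DMSO, against 7.20% in parental A375, and it was highest for CA9 in gSOX10 #4 (80.1%). Some libraries were high or low for most enzymes of glycolysis at once. gSOX10 #4 replicate 1 was the highest of its group for 15 of the 17 enzymes, gSOX10 #2 replicate 2 for 14 and parental A375 replicate 1 for 13. CRT35 Combo replicate 1 and gSOX10 #4 replicate 3 were each the lowest of their group for 13.

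Beyond the 36, genes of the same pathways were counted from 3 further lists: 34 tested genes of glycolysis and pyruvate handling, 41 other HIF targets, and 18 genes of oxygen sensing and HIF regulation. The lists were chosen with earlier results of these data known, so their shares beside those of all genes are a description. Of the other HIF targets, 12 were called higher and 0 lower (limma, 5 lower at an unadjusted p under 0.05) in gSOX10 #2, 11 and 3 in gSOX10 #4, 12 and 5 in CRT34 Combo, 14 and 2 in CRT35 Combo, 13 and 5 in CRT34 DMSO, and 11 and 6 in CRT35 DMSO, with median log2 changes from 0.18 to 0.41 beside 0.00 to 0.05 for all genes. Their shares called higher, 29.3%, 26.8%, 29.3%, 34.1%, 31.7% and 26.8% in that order, lay above the shares of all genes (15.9%, 11.8%, 19.1%, 20.1%, 15.7% and 15.7%). Their shares called lower, 0%, 7.32%, 12.2%, 4.88%, 12.2% and 14.6%, lay above those of all genes (7.78%, 8.91%, 8.09%, 10.2%, 7.35% and 7.98%) in CRT34 Combo, CRT34 DMSO and CRT35 DMSO and below them in the other groups. STC1, the paralog of STC2, rose in all 6, by 5.13, 4.29, 2.07, 2.09, 5.41 and 5.52 in gSOX10 #2, gSOX10 #4, CRT34 Combo, CRT35 Combo, CRT34 DMSO and CRT35 DMSO. It fell with inhibitors in both CRT lines, to a mean of 1861 in CRT34 Combo against 17334 in CRT34 DMSO and 1804 in CRT35 Combo against 17254 in CRT35 DMSO (log2 changes -3.33 and -3.44, with adjusted p = 0.00038 and 0.001). CITED2, which competes with HIF for its coactivators, rose in 5 of the 6, by up to 3.20 in CRT34 Combo. NOS2, the inducible nitric oxide synthase, reached 10 in all libraries only in gSOX10 #2 and parental A375, so its levels are a description. It averaged 55.3 in gSOX10 #2 and from 0.319 (CRT35 Combo) to 10.5 (gSOX10 #4) in the other derived groups, against 25.8 in parental A375.

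Among the other genes of glycolysis and pyruvate handling, 8 were called higher and 1 lower in gSOX10 #2, 6 and 2 in gSOX10 #4, 7 and 3 in CRT34 Combo, 6 and 4 in CRT35 Combo, 5 and 3 in CRT34 DMSO, and 3 and 3 in CRT35 DMSO. The shares called higher, 23.5%, 17.6%, 20.6%, 17.6%, 14.7% and 8.82% in that order, lay on both sides of the shares of all genes named above, as did the shares called lower, 2.94%, 5.88%, 8.82%, 11.8%, 8.82% and 8.82%, and the median log2 changes ran from 0.01 (CRT34 Combo) to 0.25 (CRT35 Combo). TXNIP, which restrains glucose uptake, rose in gSOX10 #4 (2.33), CRT34 Combo (4.33), CRT35 Combo (4.36), CRT34 DMSO (3.11) and CRT35 DMSO (2.53), and had 0.72 in gSOX10 #2. SLC2A10, a sugar transporter, rose in gSOX10 #2 (1.80) and in the 4 CRT groups (3.50 to 4.24) and fell in gSOX10 #4 (-3.75), and the clones differed by -5.55 (gSOX10 #4 minus gSOX10 #2, adjusted p = 7.8e-06). SLC2A12, a further carrier, rose by 4.08 and 3.39 in gSOX10 #2 and #4 and by 1.89, 2.19 and 1.51 in CRT34 Combo, CRT35 Combo and CRT34 DMSO. LDHD, at most 5.54 in parental A375, and PGAM2, the muscle phosphoglycerate mutase, passed the filter on low values only through derived groups. Both are among the genes counted in this list, so its shares called higher are a description, as are the levels of PGAM2. PGAM2 averaged 15.1 in gSOX10 #2, 86.1 in gSOX10 #4, 213 in CRT34 Combo, 24.8 in CRT35 Combo and 19.9 in CRT34 DMSO, against 1.45 in parental A375.

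Of the 18 genes of oxygen sensing, 2, 3, 2, 2, 1 and 1 were called lower in gSOX10 #2, gSOX10 #4, CRT34 Combo, CRT35 Combo, CRT34 DMSO and CRT35 DMSO, and 0, 1, 1, 0, 1 and 1 higher (limma, with 2 in gSOX10 #2 and 2 in CRT35 Combo higher at an unadjusted p under 0.05). With 18 genes 1 gene is 5.56%, and the shares of all genes called lower were from 7.35% to 10.2% and called higher from 11.8% to 20.1%. HSP90AA1, the chaperone that holds HIF alpha, fell in 5 of the derived groups, with log2 changes of -1.07, -1.18, -1.10, -1.01 and -1.21, and had -0.40 in CRT35 DMSO. SIAH2, a ubiquitin ligase that removes EGLN proteins, fell in gSOX10 #2 (-1.04), CRT35 Combo (-1.53) and CRT35 DMSO (-1.21). ARNT2, a partner of HIF alpha, fell with inhibitors in CRT34 to a mean of 436 in CRT34 Combo, against 2509.7 in CRT34 DMSO (log2 change -2.46, adjusted p = 0.0034). HIF3A, a further alpha subunit, averaged under 24 in every group. With inhibitors in CRT34, the 3 lists had 3 higher and 2 lower HIF targets, 1 called glycolysis gene and 1 called oxygen sensing gene, and in CRT35 they had 2, 1 and 0 (3 oxygen sensing genes had an unadjusted p under 0.05). Over all genes 2.84% and 2.26% were called higher and lower in CRT34, and 0.487% and 0.648% in CRT35. Between the clones (gSOX10 #4 against gSOX10 #2) 3 HIF targets were called higher and 2 lower, 2 genes of glycolysis and pyruvate handling were called higher and 2 lower, and 1 gene of oxygen sensing was called lower and 0 higher (limma, 3 higher at an unadjusted p under 0.05), where 2.64% and 7.06% of all genes were called higher and lower. In CRT35 DMSO against CRT34 DMSO the called genes were 1 higher and 1 lower of the HIF targets, 1 higher and 2 lower of the genes of glycolysis and pyruvate handling and 0 of those of oxygen sensing (limma, 3 at an unadjusted p under 0.05), where 3.69% and 4.42% of all genes were called higher and lower. For the difference between the drug effects, limma called 0 in each list (0% and 0.0104% of all genes higher and lower), with 3 HIF targets, 1 of the glycolysis list and 2 of the oxygen sensing list at an unadjusted p under 0.05.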

How the data were processed

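Bulk RNA was sequenced as 101-base pairs from 21 libraries in 7 groups. Samples of parental A375 and the CRT lines were assigned by their titles, and those of the clones by their condition label. The authors aligned reads to GRCh38 with STAR 2.6.1a, estimated read counts per gene with RSEM and divided them by DESeq2 size factors, and the deposited values (signal, not whole counts and not corrected for gene length) are used as they stand. The median of library-to-reference ratios was 1.0126 in every library. Library totals ran from 59.2 to 68.3 M after that scaling. Between 27.3% and 64.5% of low values were whole multiples of the smallest step within 0.05, too few to recover reads, so the count test chosen first was replaced by limma on log values. The step gave an estimated depth of 27.4 M to 76.0 M reads, and at lower depth low values are less precise. Intervals cover the spread between libraries only. Gene identifiers were matched to GENCODE names for 58472 of 58870 genes. No per-library column was left unused. Whether counting used strand is not given in the sources used here, which name both a stranded and an unstranded kit.

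The 19290 genes that reached 10 in 3 libraries or more were tested on log2(value + 1) with limma 3.58.1 in R 4.3.3, trended prior, 1 mean per group and no covariate, over all 21 libraries (14 residual and 4.70 prior degrees of freedom). Adding 1 understates the change of low genes. Calls needed a Benjamini-Hochberg adjusted p of at most 0.05 over all genes tested and a change of at least 2-fold, the thresholds of the study. Error is the SE of the fit or the SD of 3 libraries, and intervals are 95%. The fit was tested on simulated data with known changes. All 36 members are named. Library values are printed for members called in at least 3 of the 6 comparisons with parental A375, or in a comparison of Combo with DMSO, of the clones, or of the CRT lines off drug, and HIF1A was added after its values were seen. Up to 4 genes per further list, called in most comparisons, are named, and 1 gene that this rule picks is not reported here. The members and lists were chosen with earlier results of these data known. Alternatives were a pseudocount of 10, no filter, equal totals, quantile normalization, only the groups compared, the replicate number as a block, each library left out in turn and, chosen after seeing the data, 2 libraries left out together.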

Additional observations from a re-analysis of the deposited data

Results flagged for a closer look

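EGLN3 was flagged because the clones differed in a direct test: it was lower in gSOX10 #4 than in gSOX10 #2, with a log2 change of -1.15. PFKFB4 and BHLHE40 were flagged because the CRT lines differed off drug, with log2 changes of -1.35 and -1.08 in CRT35 DMSO against CRT34 DMSO.

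PFKFB4 and EGLN3 were also flagged because they were called in opposite directions against parental A375, with every library of a group on one side. PFKFB4 had log2 changes of 1.08 in gSOX10 #2 and 1.25 in gSOX10 #4, and of -1.66 in CRT34 Combo, -2.49 in CRT35 Combo and -1.43 in CRT35 DMSO. EGLN3 had -1.67 in gSOX10 #4, and 1.03 in CRT34 Combo and 1.09 in CRT35 Combo. These differences between clones and CRT lines were not tested, and all of them use the same parental libraries.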

How the results depend on the processing

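Of 63 calls of a member in a comparison, 47 kept their direction and stayed past the threshold under every alternative, none reversed, and 20 further calls appeared under at least 1. In CRT34 Combo against CRT34 DMSO 4 members were called, 1 when only the groups compared were fitted, 0 with the replicate number as a block, 7 without CRT34 Combo replicate 3 and CRT35 DMSO replicate 1, and 3 to 7 with 1 library left out. In CRT35 Combo against CRT35 DMSO none was called, 1 with only the groups compared, 2 with the block (PFKFB4 and ANKRD37) and 1 without those libraries. Between the clones 1 was called, 0 with a pseudocount of 10, with no filter or with only the groups compared, and 1 to 2 with 1 library left out. Between the CRT lines off drug 2 were called, 4 without those libraries and 0 to 3 with 1 left out (0 without CRT35 DMSO replicate 2 or 3). For the difference between the drug effects none was called, 1 with a pseudocount of 10, 1 without those libraries and 0 to 1 with 1 left out. In the 6 comparisons with parental A375 the total counts of called members stayed within 1.5 times under every setting run, the block having been run for 5 of the 6 (not gSOX10 #2). The count lower in CRT34 DMSO was 0, 2 without CRT34 DMSO replicate 1 (SLC2A1 and HK2) and 1 without parental A375 replicate 3 (SLC2A1). Replicate numbers were not taken to pair libraries: same-numbered ones deviated together (every r over 0.1) in 1 of 15 pairs of groups, CRT34 Combo with CRT35 Combo (r = 0.218, 0.253 and 0.207), the only pair in which every library was closest to its own number. No paired analysis was possible for gSOX10 #2 because its labels carry no shared numbers. The test on counts planned as an alternative was not run, since the values are not counts. The cause of these changes was not tested. Scaling to equal totals moved the median of all genes to 0.15 in gSOX10 #2, 0.14 in CRT34 Combo and 0.13 in CRT35 Combo, and quantile normalization moved it to between -0.01 (gSOX10 #4) and -0.13 (CRT35 Combo). Of the calls over all genes, the share higher was 67.1% in gSOX10 #2 and 53.9% after quantile normalization, 70.2% and 51.8% in CRT34 Combo, 66.4% and 50.8% in CRT35 Combo, 68.2% and 53.4% in CRT34 DMSO, 66.3% and 54.1% in CRT35 DMSO, and 27.2% and 40.8% between the clones. With 3 libraries a group, changes of low genes such as EGLN3 and CA9 are the least precise.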
